A study of Mus musculus with 3 samples.

Results

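The type I interferon-stimulated genes described here are 35 genes, of 19723 in the table of raw read counts. They were chosen by mouse gene symbol from a list of classical targets of type I interferon, with earlier results of these data known. All 35 were found, and all passed the filter on low values. They were measured by RNA-seq in 3 pooled cell sorts from female BALB/c mice aged 6 to 8 weeks, with 1 library for each. Myeloid-derived suppressor cells (MDSCs, immature myeloid cells of tumours that restrain T cells) were sorted from 20 pooled tumours of mice treated with alisertib, an inhibitor of the mitotic kinase Aurora A, and from 20 pooled tumours of control mice, which the labels describe in one place as untreated and in another as control treated. Neutrophils were sorted from the bone marrow of 5 pooled wild-type mice. For the tumour line, the dose and schedule of alisertib and the surface markers of the sort, nothing is given in the sources used here.

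Type I interferons are secreted by cells that sense foreign or misplaced nucleic acid. They bind the receptor of IFNAR1 and IFNAR2, whose kinases JAK1 and TYK2 phosphorylate STAT2, which acts with IRF9 in the complex ISGF3. ISGF3 binds the interferon-stimulated response element in the promoters of its targets, most of which encode proteins that bind, modify or degrade viral RNA or that amplify the signal. In tumours, interferon signalling in neutrophils and other myeloid cells is known to shape how these cells act on T cells and on tumour growth.

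The stretches of promoter below are from 7 members that hold a known interferon-response motif and differed between libraries, and show where the motif lies and how alike the copies Ifit3 and Ifit3b, and Oas1a and Oas1g, are. Other members that differed as much, such as Ifit2, Oasl2, Isg20 and Cmpk2, have no match and are not shown. Each is 60 bases long, lies wholly upstream of the annotated start, is written 5′ to 3′ on the strand of the gene, and comes from RefSeq (GRCm38.p6). Capitals mark the core of the interferon-stimulated response element, searched as GAAA, any 2 bases and GAAA again, or on the other strand TTTC, any 2 bases and TTTC, and neighbouring matches may overlap. Ifit1 is at chr19:34640775-34640834 on the plus strand, Ifit3 at chr19:34583363-34583422 and Ifit3b at chr19:34607759-34607818 on the same strand, Isg15 at chr4:156200847-156200906 on the minus strand, Oas1a at chr5:120907526-120907585 and Oas1g at chr5:120887614-120887673 on the minus strand, and Rsad2 at chr12:26456523-26456582 on the minus strand.
Ifit1: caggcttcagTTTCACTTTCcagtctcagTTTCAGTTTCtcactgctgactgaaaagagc
Ifit3: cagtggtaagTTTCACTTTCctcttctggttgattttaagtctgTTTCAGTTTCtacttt
Ifit3b: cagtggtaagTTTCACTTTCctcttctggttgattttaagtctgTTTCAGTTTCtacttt
Isg15: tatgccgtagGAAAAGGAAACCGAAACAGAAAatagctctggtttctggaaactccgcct
Oas1a: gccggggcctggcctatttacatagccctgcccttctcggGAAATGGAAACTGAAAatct
Oas1g: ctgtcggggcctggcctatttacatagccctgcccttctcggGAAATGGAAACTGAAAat
Rsad2: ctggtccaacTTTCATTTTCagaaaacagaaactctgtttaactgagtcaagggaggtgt

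The stretches of Ifit3 and Ifit3b were identical in 60 of 60 bases, and those of Oas1a and Oas1g in 57 of 58 bases when aligned on their first match. A search of the window from 250 bases before to 50 bases after the start, on both strands, matched 15 of the 26 members in the RefSeq promoter table (57.7%), against 3.99% of all 27025 genes in that table. The 15 were Bst2, Ddx58, Eif2ak2, Ifih1, Ifit1, Ifit1bl1, Ifit3, Ifit3b, Isg15, Oas1a, Oas1g, Oas3, Rsad2, Stat2 and Trim30a. Ifit2, Oasl2, Isg20, Cmpk2 and Irf7 were among the 11 with no match, which says only that these letters are not in that window. The other 9 members, Dhx58, Ifi204, Mx1, Mx2, Oas2, Parp14, Rtp4, Usp18 and Zbp1, were not searched.

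Levels are given as CPM, counts per 1e6 reads of a library scaled by edgeR's TMM factors, and are compared only within a gene. A ratio of CPM was given the exact 95% interval that its counts allow, and a call of higher or lower required a difference of at least 2-fold at the end of that interval nearest to 1. Since each group was 1 library and had no replicate, no p-value was computed, the calls describe these libraries, and the intervals cover counting error only. The reads carried no molecular identifiers and are not independent molecules. In sorted bulk RNA, a change in the number of cells that express a gene and a change in RNA per cell cannot be told apart.

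The alisertib library held more IFIT transcript than the control library, and little else in the list differed by as much. Of the 35 members 4 were called higher and 0 lower, against 1.8% of all 13019 genes past the filter called higher and 1.18% called lower. The 4 were Ifit1, Ifit2, Ifit3 and Ifit3b, with ratios of 2.87 to 3.95. Without 8 members that have close copies, Ifit2 is the 1 call that is left. Ifit1 is among the 8, although only 7.13% of the 50-base windows of its transcripts occur in another gene. Of the other members, 22 lay above 0 and 9 below on the log2 scale, and the median log2 ratio of all 35 was 0.32 against 0.0014 for all genes. With total counts as the library sizes, which shift all genes by 0.27, the median of the members was 0.59 and 33 of 35 lay above 0, Irf9 and Ifi204 being the exceptions. At a call bound of 1.5-fold, 8 members were called higher and 1 lower, against 4.74% and 4.92% of all genes, and at 3-fold the counts were 2 and 0, against 0.73% and 0.2%. There were 14 members above the 75th percentile of all genes (a log2 ratio of 0.39) and 1 below the 25th.

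Against bone marrow neutrophils, the tumour libraries differed in many members, in both directions. In the control MDSC library 15 of the 35 members were called higher, against 18.3% of all genes, and 3 were called lower, against 22.9%. The median log2 ratio of the members was 1.01, against -0.14 for all genes. In the alisertib MDSC library 18 were called higher, against 18.7% of all genes, and 1 lower, against 22.3%, with a median log2 ratio of 1.26 against -0.095. At a bound of 1.5-fold 4 were lower in that library, against 30.7% of all genes. The marrow library is shared by these comparisons, which are therefore not independent. Summed over the 35 members, the level was 3030.03 CPM in the alisertib library, 2521 CPM in the control library and 1408 CPM in the marrow library.

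**Figure D1:**
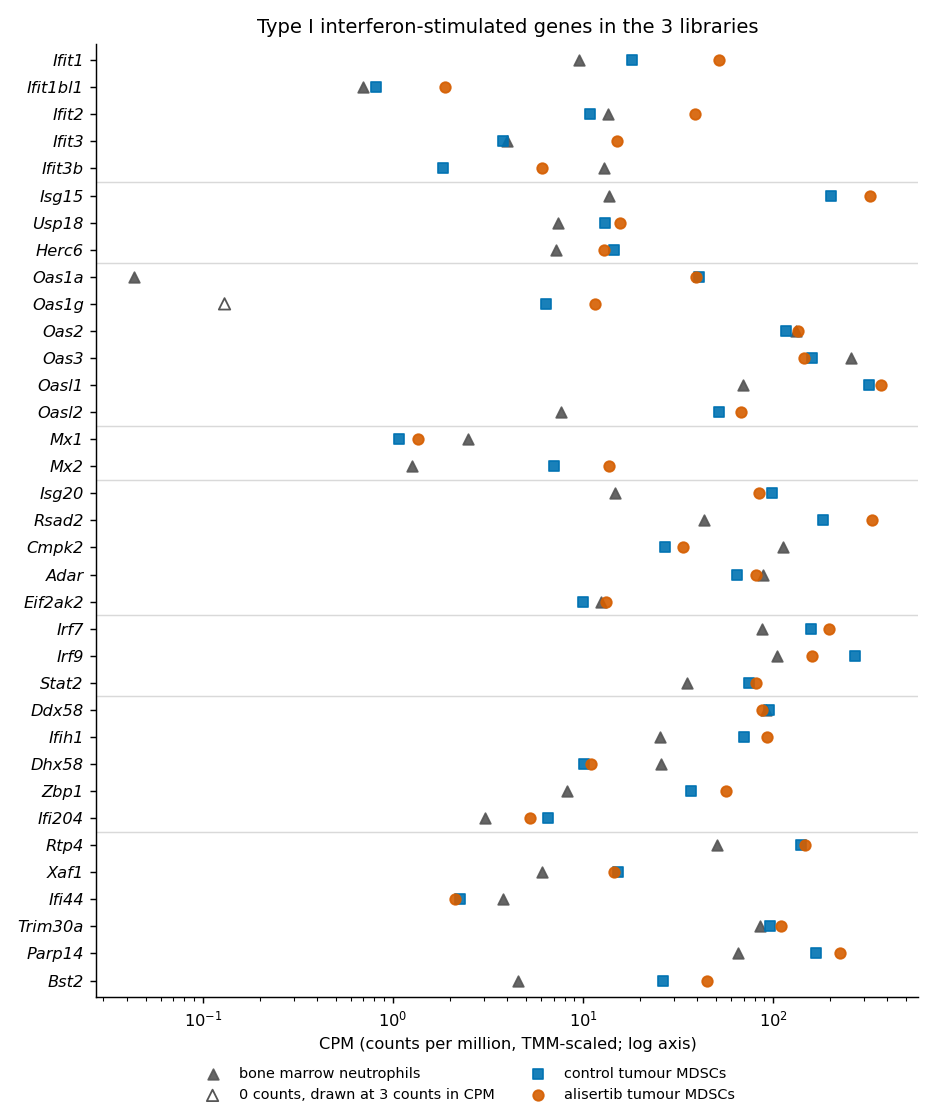
Level of each of the 35 members in the 3 libraries, in CPM on a log axis, with members grouped by role and 1 point per library. The alisertib points of the IFIT genes lie to the right of the control points, and most OAS, Isg15, Rsad2 and Bst2 points of the tumour libraries lie far to the right of the marrow points.

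The labelled cell types were checked against marker lists, which like the members were chosen with earlier results of these data known. The 15 neutrophil markers, among them S100a8 and S100a9, summed to 15359.9 CPM in the alisertib library, 35349.5 in the control library and 111461 in the marrow library. Of these, 8 were called lower in alisertib than in control MDSCs, against 1.18% of all genes. On the log2 scale 12 of the 15 lay below 0 there and 3 above. The markers did not differ alike. Csf3r was at 1725, 2226 and 2368 CPM in the alisertib, control and marrow libraries, and Mmp9 at 1411, 1137 and 4880 CPM. Ly6g, a neutrophil surface marker, was at 60.03, 82.2 and 1099.8 CPM in that order, with 1246, 1605 and 25371 counts. The sums for the other types, in the same order of libraries, were 70.9, 29.1 and 154 CPM for 17 T and NK cell markers (of the marrow sum, 136 CPM was Cd3d), 54.2, 7.83 and 236 CPM for 12 B and plasma cell markers, 24.95, 9.06 and 11.8 CPM for 8 conventional dendritic cell markers, and 1088, 1016 and 601 CPM for 14 monocyte and macrophage markers. Of the plasmacytoid dendritic cell markers, 8 summed to 62.6, 78.1 and 108 CPM, of which Runx2 made up 44.0, 65.1 and 71.0 CPM, and the defining Siglech was at 0 counts in both tumour libraries and 51 counts in marrow. In alisertib against control MDSCs, 8 T and NK cell markers and 8 B cell markers were called higher, against 1.8% of all genes, and 0 monocyte and macrophage markers were called. Some of these T cell markers, such as Cd3e and Trac, passed the filter through the alisertib library alone. The plasmacytoid and conventional dendritic cell lists each held 1 marker called higher, Spib by 7.72-fold (3.75 to 21.3) and Ccr7 by 6.43-fold (4.77 to 9.01), and their median log2 ratios were 1.42 and -0.052. Of 15 T and NK cell markers past the filter, 10 were called higher and 2 lower in alisertib MDSCs than in marrow, where 18.7% and 22.3% of all genes were. In control MDSCs 4 were higher and 2 lower, where 18.3% and 22.9% of all genes were. Both go against the order of the sums. At 0 counts were Klrb1c in both tumour libraries, Ncr1 and Cd209a in the alisertib library, Mzb1 and Ly6d in the control library, and Trac and Epcam in the marrow library. Among 3 epithelial markers the sums were 17.6, 16.3 and 5.68 CPM. Of the marrow sum, 5.46 CPM was Cdh1, and Krt18 was at 7.95, 6.81 and 0.217 CPM. The other 5 epithelial markers are not in the counts and have only the authors' FPKM values, which are described below. The highest of these was Krt8, at 6.64, 5.17 and 0.0238 FPKM. Several of these lists differed between the libraries compared below, some in the direction of the members and some against it. Their part in the member differences was not tested.

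The IFIT proteins bind viral RNA, and IFIT1 recognises RNA whose cap lacks ribose methylation. They lie together on chromosome 19 (GRCm38, as all positions here). Ifit1 (ENSMUSG00000034459, chr19:34640871-34650009) had 1080 counts in the alisertib library, 354 in the control library and 220 in the marrow library, or 52.0, 18.1 and 9.54 CPM. It was 2.87-fold higher in alisertib than in control MDSCs (95% interval 2.54 to 3.25) and 5.45-fold higher than in marrow (4.72 to 6.34), while control MDSCs and marrow differed 1.90-fold (1.601 to 2.26), which was not called. The level in the alisertib library thus stood apart from both others.

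Ifit2 (ENSMUSG00000045932, chr19:34550694-34576419), which encodes another RNA-binding family member, had 811, 212 and 314 counts in the alisertib, control and marrow libraries, or 39.1, 10.9 and 13.6 CPM. It was 3.59-fold higher in alisertib than in control MDSCs (3.09 to 4.21) and 2.87-fold higher than in marrow (2.52 to 3.28). The control library was 1.25-fold below marrow (lower bound 1.05), so that only the alisertib library was high. No 50-base stretch of its transcripts was shared with another gene, so this difference does not rest on reads divided between copies.

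Ifit3 and its neighbour Ifit3b start 24439 bases apart and share many reads. Of the 50-base windows of Ifit3 transcripts 51.2% occur in another gene, and of those of Ifit3b 45.0%. Ifit3 (ENSMUSG00000074896, chr19:34583531-34588731) had 312, 74 and 92 counts in the alisertib, control and marrow libraries, or 15.0, 3.79 and 3.99 CPM. Its level was 3.95-fold higher in alisertib than in control MDSCs (3.07 to 5.18) and 3.75-fold higher than in marrow (2.98 to 4.81), and control MDSCs and marrow lay within counting error of each other.

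Ifit3b (ENSMUSG00000062488, chr19:34607970-34613401) followed another order. It had 127, 36 and 297 counts, or 6.12, 1.84 and 12.9 CPM in the alisertib, control and marrow libraries. It was 3.29-fold higher in alisertib than in control MDSCs (2.28 to 4.95), and 6.90-fold lower in control MDSCs than in marrow (4.93 to 10.2). The marrow library was the highest for this gene, while for Ifit3 it lay beside the control library.

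The division of reads between the copies thus differed by tissue. Ifit3 took 71.1% (exact binomial interval 66.6 to 75.3%) of the 439 counts of the pair in the alisertib library and 67.3% (57.7 to 75.9%) of 110 in the control library, but 23.7% (19.5 to 28.2%) of 389 in marrow. How reads that fit both copies were assigned is not given in the sources used here, so the single values are uncertain. The summed counts were 3.74-fold higher in alisertib than in control MDSCs (3.04 to 4.67), 2.98-fold lower in control MDSCs than in marrow (2.42 to 3.73), and 1.25-fold higher in alisertib MDSCs than in marrow (1.09 to 1.44), which was not called.

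Ifit1bl1, a copy of Ifit1, was near the limit of detection with 39, 16 and 16 counts. At 1.88, 0.819 and 0.694 CPM it passed the filter through the alisertib library alone. Its ratio of 2.25 between alisertib and control MDSCs (1.25 to 4.40) was not called. Together the 5 IFIT genes summed to 114 CPM in the alisertib library, 35.4 in the control library and 40.7 in the marrow library. Their median log2 ratio in alisertib against control MDSCs was 1.72, while the same median for control MDSCs against marrow was -0.072, or 0.21 with upper quartile factors.

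**Figure D2:**
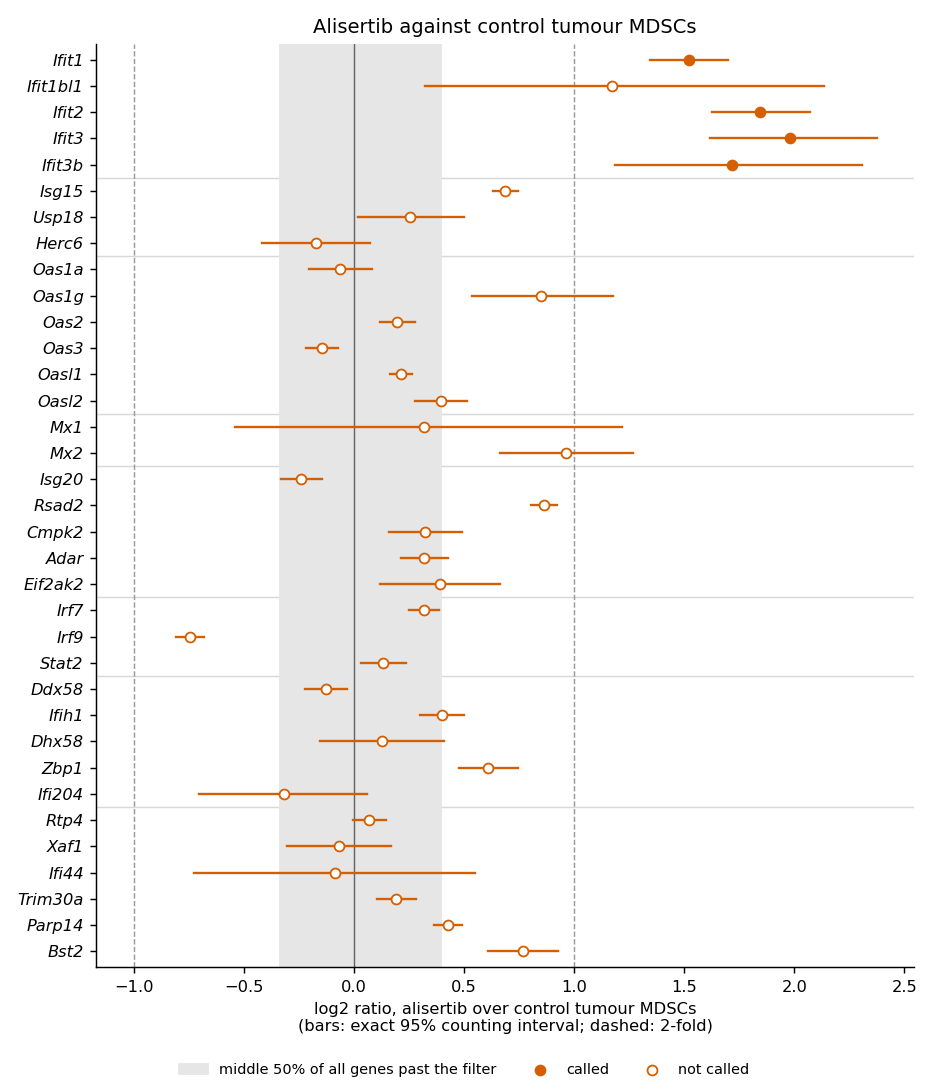
Ratio of the level in alisertib to that in control tumour MDSCs for each member, on a log2 axis, with the 95% counting interval as a bar. The 4 filled points are Ifit1, Ifit2, Ifit3 and Ifit3b, whose lower bounds lie at 2.28 to 3.09, and Irf9 is the lowest point with a ratio 1.68-fold below 1.

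ISG15 is a ubiquitin-like protein that is joined to other proteins and also secreted. Isg15 (ENSMUSG00000035692, chr4:156199424-156200818) had 6748 counts in the alisertib library, 3943 in the control library and 316 in the marrow library, or 325, 202 and 13.7 CPM. Both tumour libraries were far above marrow, by 23.7-fold with alisertib (21.2 to 26.7) and 14.7-fold in the control (13.1 to 16.6). Between the tumour libraries the ratio was 1.61 (1.55 to 1.68), below the 2-fold bound.

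The genes that attach and remove ISG15 did not follow it in size. Usp18, the protease that removes ISG15 and blocks signalling at IFNAR2, was at 15.6, 13.1 and 7.41 CPM in the alisertib, control and marrow libraries. Herc6, the main ISG15 ligase of mice, was at 13.0, 14.6 and 7.24 CPM, and 12.5% of its 50-base windows also occur in the unnamed gene model Gm45193. Neither was called in any comparison, and their ratios of control MDSCs to marrow were 1.76 (1.45 to 2.15) and 2.01 (1.66 to 2.45). With upper quartile factors Herc6 was called higher in control MDSCs and Usp18 in alisertib MDSCs than in marrow.

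The OAS enzymes sense double-stranded RNA and make short oligoadenylates that activate RNase L. Oas1a (ENSMUSG00000052776, chr5:120896256-120907521) had 813 counts in the alisertib library and 798 in the control library, or 39.2 and 40.9 CPM, and 1 count in marrow. The ratio to marrow was 603 (162 to 35730.3) with alisertib and 629 (169 to 37269.9) in the control, intervals set by that 1 count. The tumour libraries themselves differed 1.04-fold (0.945 to 1.15).

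Oas1g (ENSMUSG00000066861, chr5:120876142-120887613), a copy whose start is 19908 bases away, had 240, 125 and 0 counts in the same order. Against a floor of 3 counts it was 88.9-fold higher in alisertib MDSCs and 49.2-fold higher in control MDSCs than in marrow. These are not lower limits, since the exact counting intervals of the ratios began at 71.7 with alisertib and 39.4 in the control. The Oas1g ratio of 1.803 between the tumour libraries (1.45 to 2.26) was not called. The copies share 57.6% of the 50-base windows of Oas1a, and their summed counts of 1053 and 923 gave a ratio of 1.07 (0.982 to 1.17).

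The larger OAS genes were the reverse, with marrow as high as the tumour libraries or higher. Oas2 was at 135, 117 and 131 CPM in the alisertib, control and marrow libraries, so no library stood apart. Oas3 was at 145, 159.9 and 257 CPM, which put control MDSCs 1.61-fold below marrow (1.54 to 1.68) without a call.

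The OAS-like genes again separated tumour from marrow. Oasl1, whose protein has no synthetase activity and holds back translation of IRF7 in mice, had 7684, 6233 and 1597 counts, or 370.2, 319 and 69.2 CPM. It was 5.35-fold higher in alisertib MDSCs than in marrow (5.07 to 5.65) and 4.61-fold higher in control MDSCs (4.36 to 4.87). Oasl2, the active copy that starts 26304 bases from it, was at 68.1, 51.8 and 7.63 CPM, which is 8.91-fold (7.63 to 10.5) and 6.77-fold (5.78 to 8.01) above marrow. Of the 6 OAS genes 4 were called higher than marrow in each tumour library, against 18.3% of all genes in control and 18.7% in alisertib MDSCs. The copies Oas1a and Oas1g are among these 4. Between the tumour libraries 0 were called, against 1.8% of all genes called higher and 1.18% lower.

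The MX proteins are GTPases that trap viral nucleocapsids, in the nucleus for Mx1 and in the cytoplasm for Mx2. Mx1 was scarcely read, with 28, 21 and 57 counts, and was not called in any comparison. Mx2, which the annotation lists as a polymorphic pseudogene, had 284, 137 and 29 counts, or 13.7, 7.01 and 1.26 CPM. It was 10.7-fold higher in alisertib MDSCs than in marrow (7.41 to 16.5) and 5.505-fold higher in control MDSCs (3.72 to 8.64), and 1.95-fold apart between the tumour libraries (1.59 to 2.41), which was not called.

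Rsad2 encodes viperin, which turns CTP into a chain terminator of viral RNA synthesis, and Cmpk2 encodes a mitochondrial nucleotide kinase that supplies it. They are neighbours, transcribed in opposite directions from starts 12752 bases apart. Rsad2 (ENSMUSG00000020641, chr12:26442746-26456452) had 6874, 3560 and 998 counts, or 331, 182 and 43.3 CPM in the alisertib, control and marrow libraries. It was 7.65-fold higher in alisertib MDSCs than in marrow (7.16 to 8.19) and 4.21-fold higher in control MDSCs (3.93 to 4.52). Its ratio of 1.82 between the tumour libraries (1.74 to 1.89) was not called, but was with total counts as library sizes.

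Cmpk2 (ENSMUSG00000020638, chr12:26469204-26479837) went the other way. It had 699, 525 and 2617 counts, or 33.7, 26.9 and 113 CPM, and was 3.37-fold lower in alisertib MDSCs than in marrow (3.10 to 3.67) and 4.22-fold lower in control MDSCs (3.84 to 4.64). Rsad2 therefore took 90.8% of the counts of the pair in the alisertib library and 87.1% in the control library, against 27.6% in marrow (26.2 to 29.1%).

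The remaining enzymes act on RNA. Isg20, an exonuclease, was at 84.1, 99.3 and 14.8 CPM in the alisertib, control and marrow libraries, which put it 5.68-fold (5.06 to 6.41) and 6.71-fold (5.98 to 7.56) above marrow. Adar, which edits adenosine to inosine in double-stranded RNA, was at 81.1, 65.0 and 88.2 CPM, and 16.8% of its exon bases overlap Chrnb2 on the opposite strand. Eif2ak2, the kinase PKR, was at 13.2, 10.03 and 12.4 CPM. Neither Adar nor Eif2ak2 was called in any comparison.

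Of the signalling members, Irf9 had the lowest ratio of all 35 between alisertib and control MDSCs. Irf9 (ENSMUSG00000002325, chr14:55603571-55610030), the DNA-binding subunit of ISGF3, had 3346, 5276 and 2428 counts, or 161, 270.1 and 105 CPM. The alisertib library was 1.68-fold below control (1.604 to 1.75), which was not called, and control MDSCs were 2.57-fold above marrow (2.45 to 2.69), which was. Stat2, its partner, was at 81.6, 74.4 and 35.3 CPM. Irf7, which drives the transcription of interferon alpha genes, was at 197, 158 and 87.1 CPM. In alisertib MDSCs both were called higher than marrow, Stat2 by 2.31-fold (2.12 to 2.52) and Irf7 by 2.27-fold (2.15 to 2.39). In control MDSCs neither reached the bound, at 2.11-fold (1.93 to 2.30) and 1.82-fold (1.72 to 1.92), although Stat2 was called with DESeq2 size factors and both with upper quartile factors. Whether the tumour libraries differ in this is given by their own ratios of 1.10 and 1.25, neither called.

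The sensors of foreign nucleic acid differed from each other. Ifih1, which encodes the long RNA sensor MDA5, was at 92.7, 70.3 and 25.4 CPM in the alisertib, control and marrow libraries, and so 3.65-fold (3.32 to 4.01) and 2.77-fold (2.51 to 3.05) above marrow. Ddx58, which encodes RIG-I, the sensor of uncapped RNA ends, was at 87.4, 95.4 and 91.7 CPM, with no library apart. Dhx58, which encodes their regulator LGP2, was at 11.1, 10.1 and 25.7 CPM and was called lower in control MDSCs than in marrow, by 2.53-fold (2.15 to 2.99), a call that was lost with upper quartile factors.

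Zbp1, a sensor of Z-form nucleic acid that triggers necroptosis, had 1172, 722 and 190 counts, or 56.5, 37.0 and 8.24 CPM. Of the 5 sensors among the members it had the largest ratio to marrow, at 6.84-fold in alisertib MDSCs (5.88 to 8.03) and 4.48-fold in control MDSCs (3.82 to 5.29). Ifi204, a nuclear DNA-binding protein of the HIN family, was at 5.25, 6.55 and 3.03 CPM and was not called. Its copies share 20.0% of its 50-base windows.

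Among the other members, Bst2 (tetherin, which holds budding virions at the cell surface) had 928, 513 and 105 counts, or 44.7, 26.3 and 4.55 CPM. It was 9.78-fold higher in alisertib MDSCs than in marrow (8.02 to 12.1) and 5.75-fold higher in control MDSCs (4.67 to 7.19), with a ratio of 1.70 between the tumour libraries (1.53 to 1.90). Parp14, a mono-ADP-ribosyltransferase, was at 225, 167 and 65.2 CPM, 3.45-fold and 2.57-fold above marrow. Rtp4, a chaperone of receptors, was at 147, 139.6 and 50.5 CPM, 2.905-fold and 2.77-fold above marrow, and shares 11.6% of its windows with the gene model Gm45338.

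Xaf1, a promoter of apoptosis, was at 14.5, 15.3 and 6.07 CPM. Its ratio of 2.51 between control MDSCs and marrow (2.05 to 3.10) was called, and its near-equal ratio of 2.39 between alisertib MDSCs and marrow (1.96 to 2.95) was not. The first call was lost with total counts and with FPKM plus 1. The second was gained with upper quartile factors and with FPKM plus 0.1. Calls on FPKM values needed only the ratio itself to reach 2-fold, which is a looser rule. Trim30a, a member of the TRIM ubiquitin ligase family, was at 109.7, 96.0 and 85.8 CPM and was not called. Ifi44, a cytoplasmic protein of the interferon response, had 44, 44 and 88 counts and was not called either.

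The order of the libraries followed from these values. The alisertib library was the highest for 21 members, the control library for 7 (Herc6, Oas1a, Isg20, Irf9, Ddx58, Ifi204 and Xaf1) and the marrow library for 7 (Ifit3b, Oas3, Mx1, Cmpk2, Adar, Dhx58 and Ifi44). Many neighbours in that order lay within counting error, and with total counts as library sizes the numbers were 25, 2 and 8.

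Levels of different genes were compared per length, as the authors' FPKM values (fragments per kilobase of exon, scaled to library depth). Isg15 led the list in both tumour libraries, at 418 FPKM with alisertib and 260.1 in the control, which was 35.3% and 28.7% of the FPKM summed over the 35 members. Oasl1 came next, at 138 and 119 FPKM, and then Rtp4, at 90.5 and 86.4 FPKM. In marrow no member led by as much, with Oas3 at 35.9, Cmpk2 at 35.1, Rtp4 at 31.7 and Oas2 at 29.2 FPKM. The 5 IFIT genes were not among the most abundant members. In the alisertib library Ifit1 ranked 14 of 35 at 19.02 FPKM, Ifit2 ranked 22 at 9.66, Ifit3 ranked 23 at 8.37, Ifit3b ranked 29 at 2.97 and Ifit1bl1 ranked 33 at 0.802 FPKM. In the control library they ranked 21 to 34, between 6.65 and 0.351 FPKM. The median member was at 11.02, 8.19 and 5.89 FPKM in the alisertib, control and marrow libraries.

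The rest of the pathway was read from lists of its other genes. Of 9 genes of interferon receptors and their kinases 0 were called between alisertib and control MDSCs, but all 9 lay below 0, with a median log2 ratio of -0.60 (with total counts as library sizes 5 lay below 0 and the median was -0.33). Ifnar1, a subunit of the type I receptor, was at 205, 329 and 82.2 CPM in the alisertib, control and marrow libraries. It was 1.604-fold below control in alisertib MDSCs (1.54 to 1.67) and 4.004-fold above marrow in control MDSCs (3.80 to 4.22). Jak2, a kinase of the interferon gamma receptor, was at 476, 776 and 116 CPM and was 6.69-fold above marrow in control MDSCs (6.42 to 6.97). Jak1 was 1.17-fold below control in alisertib MDSCs (1.13 to 1.20). Ifnlr1, a subunit of the type III interferon receptor, was 6.19-fold below marrow in control MDSCs (5.62 to 6.85) and 9.43-fold below it in alisertib MDSCs (8.41 to 10.6). Against marrow, 4 of these 9 genes were called higher and 1 lower in control MDSCs, against 18.3% and 22.9% of all genes, and 3 higher and 2 lower in alisertib MDSCs, against 18.7% and 22.3%. These shares of all genes are the ones to set beside the marrow counts of the next lists too.

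Of 10 transcription factors and inhibitors of the pathway 0 were called between the tumour libraries, with a median log2 ratio of -0.23. Socs3, an inhibitor of JAK kinases that many cytokines induce, was 13.2-fold above marrow in control MDSCs (12.5 to 13.8), and Socs1, the inhibitor of interferon receptor signalling, was 7.41-fold above it (6.42 to 8.62). Ptpn6, a phosphatase that also restrains the pathway, was 8.04-fold below it (7.58 to 8.53). Of these 10, 4 were called higher and 2 lower than marrow in each tumour library, and for the lower ones this is near the share of all genes. Of 16 genes past the filter that sense nucleic acid upstream of interferon, 0 were called between the tumour libraries. Against marrow 5 were called higher and 1 lower in control MDSCs, and 5 higher and 3 lower in alisertib MDSCs. On the log2 scale 10 and 11 of the 16 lay below 0, with medians of -0.40 and -0.41. Aim2, the DNA sensor of an inflammasome, was 11.7-fold above marrow in control MDSCs (10.2 to 13.5).

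A further list of 60 interferon-stimulated genes, 52 of them past the filter, gave 0 calls between alisertib and control MDSCs, with 31 above 0, 21 below and a median log2 ratio of 0.16. Against marrow, 11 were called higher and 8 lower in control MDSCs, and 12 higher and 5 lower in alisertib MDSCs. For the higher calls this is near the 18.3% and 18.7% of all genes. Tor3a, an ATPase of the endoplasmic reticulum, was 19.1-fold above marrow in control MDSCs (16.1 to 22.9), and Nlrc5, the activator of MHC class I genes, 8.99-fold (7.87 to 10.3). Ifi47, an immunity-related GTPase, was 9.79-fold above it (7.85 to 12.5). Ifit1bl2, a copy of Ifit1 in the same cluster, was 7.35-fold below it (6.24 to 8.76).

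Genes that interferon gamma induces most strongly, the guanylate-binding and immunity-related GTPases and Irf1, held 3 called higher of 16 between alisertib and control MDSCs and 0 lower, against 1.8% and 1.18% of all genes, with a median log2 ratio of 0.62. With a filter at 10 CPM, or with FPKM plus 1, where a call rests on the ratio without an interval, 1 was called. Gbp4 was 3.48-fold higher (2.87 to 4.28) with 479 against 129 counts, and Gbp8 4.13-fold higher (2.68 to 6.83) with 107 against 24. Iigp1 had 25 counts against 1, which put the interval of its ratio at 3.85 to 966, and it passed the filter through the alisertib library alone. On the log2 scale 14 of the 16 lay above 0 and 2 below, Irf1 and Irgm1. Irf1 was at 276 CPM in the alisertib library and 440 CPM in the control library. It was 1.595-fold below control (1.54 to 1.65), which was not called. At a bound of 1.5-fold the list held 4 called higher and 1 lower, Irf1. Against marrow 11 of the 16 were called higher in control MDSCs and 15 in alisertib MDSCs, with Gbp5 at 32.0-fold (21.9 to 50.7) and 51.5-fold (35.4 to 81.5). The 4 genes of the IFITM family, membrane proteins that block viral entry, all lay below 0 between the tumour libraries, and 2 were called lower, Ifitm6 by 7.95-fold (7.42 to 8.55) and Ifitm1 by 2.41-fold (2.36 to 2.47). With total counts as library sizes 1 was called, and with DESeq2 size factors 3.

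**Figure D3:**
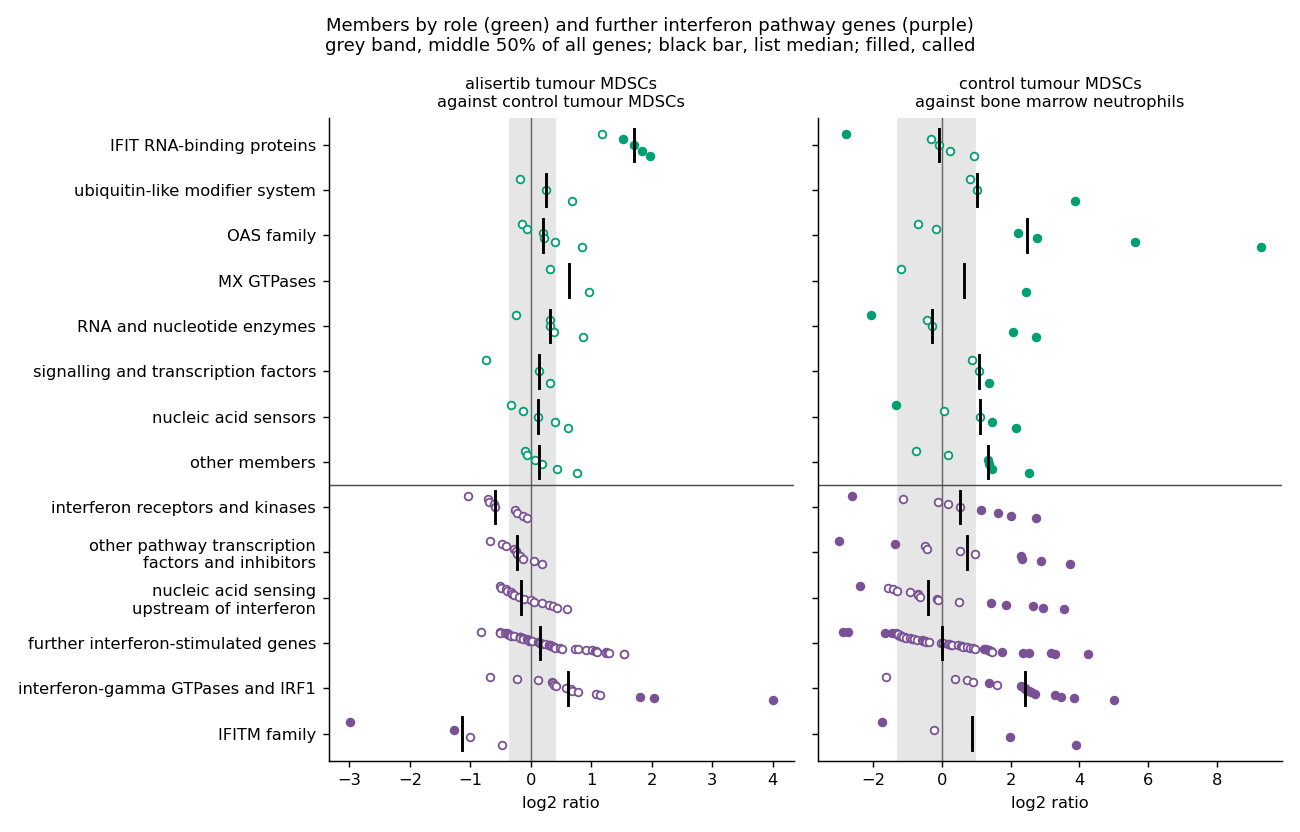
Log2 ratio of each member (green, by role) and of each further pathway gene (purple, by list), 1 point per gene, with the list median as a black bar, called genes filled and the middle 50% of all genes as a grey band. The IFIT genes are the member group farthest to the right between the tumour libraries, while the 9 receptor and kinase genes lie left of 0 there.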

How the data were processed

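The authors deposited raw read counts per gene and FPKM values, 1 column per library. The submitters' processing notes name CASAVA 1.8, STAR 2.5.1b and the builds mm9 and mm10, with no role or order. For the counter, annotation and strand setting nothing is given in the sources used here, so overlapping genes and copies are uncertain. The deposited counts came to 19373087 for alisertib, 21959748 for control and 21987097 for marrow.

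Counts were scaled by TMM factors of 1.07, 0.890 and 1.05 (edgeR 4.0.16, R 4.3.3). Genes with at least 1 CPM in at least 1 library were kept, 13019 of 19723. The log2 ratio was taken with 0.5 added to each count, and its 95% interval is the exact (Clopper-Pearson) interval given the sum of both counts. Calls were made where the bound nearest to 1 reached 2-fold. For a library at 0 counts a separate ratio was taken against a floor of 3 counts, which is 0.145, 0.154 and 0.130 CPM. Calls, intervals, medians and sums did not use this floor. With 1 library per group no test between replicates could be fitted and edgeR's and DESeq2's (1.42.0) models were not run. The scripts were tested on simulated data. FPKM values were the authors' own, and served to compare genes.

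All 35 members are named. The rule for the pathway lists ranks, per comparison, called genes by the bound nearest to 1 and then the most abundant, and takes up to 4. The text does not print all of them. 1 gene of the pathway lists is not reported here. The members and the lists were chosen with earlier results of these data known. Positions are from GENCODE M21 (GRCm38) and promoters from RefSeq (GRCm38.p6). Shared reads were judged from 50-base windows of annotated transcripts. Alternatives were other library sizes (total counts, DESeq2 size factors, upper quartile factors), other filters, FPKM values with 1 or 0.1 added, other bounds for a call, and leaving out 8 members with close copies. With FPKM values a call was made where the ratio itself reached 2-fold, without an interval. The 8 members were a fixed set, Ifit1, Ifit1bl1, Ifit3, Ifit3b, Oas1a, Oas1g, Ifi204 and Trim30a, and were not picked by a cutoff on shared windows.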

Additional observations from a re-analysis of the deposited data

Results flagged for a closer look

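Several interferon genes have no row in the comparisons of counts but are listed in the authors' FPKM table, where the alisertib library is above both others. Ifnb1, which encodes interferon beta, was at 0.998 FPKM in the alisertib library, 0.399 in the control library and 0 in marrow, which corresponds to 16, 6 and 0 reads given the exon length and the implied library size. Ifna4 was at 0.584, 0.178 and 0 FPKM, or 7, 2 and 0 reads. Ifna1 was at 0.575 FPKM in the alisertib library, or 7 reads, and Ifna2 at 0.136 FPKM, or 3 reads, both listed at 0 in the other libraries. The order was not the same for every interferon gene, since Ifna5 was listed above 0 in marrow alone, at 0.226 FPKM, and Ifna12 in the control library alone, at 0.125 FPKM. Ifng, which encodes interferon gamma, was at 0.659, 0.207 and 0.249 FPKM and did not come to whole reads. Of the 2 interferon genes in the count table, Ifnab and Ifnk, both below the filter, the summed level was 0.193 CPM in the alisertib library, 0.307 in the control library and 0 in marrow, with Ifnab at 0 counts in the alisertib library. These are few reads in 1 library per group, the interferon alpha genes are near copies of each other, and the differences were not tested.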

How the results depend on the processing

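No paired analysis was possible because each group is 1 library, and no replicate could be left out for the same reason. No called member changed direction under any alternative that was run. Between alisertib and control MDSCs the median log2 ratio of the members was 0.59 with total counts. The number called higher was 8 at a bound of 1.5-fold (adding Isg15, Mx2, Rsad2 and Bst2, with 1 called lower, Irf9), 2 at 3-fold (Ifit2 and Ifit3) and 1 without the 8 members that have close copies (Ifit2). For control MDSCs against marrow the median was 0.77 with total counts, 1.29 with upper quartile factors, 0.75 with 1 added to FPKM and 0.90 with 0.1 added. For alisertib MDSCs against marrow it was 1.54 with upper quartile factors, 1.52 with a filter at 10 CPM and 1.09 with 1 added to FPKM. The number called lower there was 4 at 1.5-fold, and 2 and 3 with 1 and 0.1 added to FPKM. All calls on FPKM values rest on the ratio alone, without an interval, and so are not made by the main rule. Of the values of single members, 808 moved by less than counting error or not at all and 125 by more. Other filters and other call bounds leave the ratio of a member unchanged, so many of the 808 could not move. Of all genes called between the tumour libraries 60.3% were higher, but 84.0% with total counts, 34.6% with a filter at 10 CPM and 32.4% with 1 added to FPKM. Depth limits Mx1, Ifit1bl1 and Ifi44, and 1 library per group leaves the spread between animals unmeasured.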
